A study of Homo sapiens with 15 samples.

Results

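The genes described here encode 10 proteins that hepatocytes secrete into plasma: the carriers TTR, RBP4, TF, HPX and AMBP, the protease inhibitor A2M, the serpin SERPINF1, and the plasma glycoproteins AZGP1, PGLYRP2 and A1BG. They were chosen by gene symbol from a list of secreted liver proteins, with differences between groups in these same libraries already known, so every adjusted p below describes this fit and is not independent support. All 10 of 10 were among the 35012 gene symbols counted and among the 14621 genes with enough counts to be tested. PGLYRP2 had few counts outside the libraries with the BRM hairpin alone. It did not pass the count filter when 2 of the other groups were fitted by themselves. RNA sequencing was done on HepG2, an established human liver cancer cell line. The cells carried lentiviral short hairpin RNAs (shRNA) that were non-silencing (NS, 4 libraries), directed at BRG1 (4 libraries), directed at BRM (3 libraries) or both (Double, 4 libraries). The NS cells were transduced and selected with puromycin like all others, with the same dose of polybrene in every library. Every group was harvested at day 5, and the labels give neither the number of hairpin sequences per target nor the origin of the replicates. The p-values therefore measure the spread between these libraries, which may be technical. BRG1 is the protein of SMARCA4 and BRM that of SMARCA2, the alternative ATPases of the SWI/SNF chromatin remodelling complexes, and the series asks where their effects on transcription add up or oppose each other.

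The liver makes most plasma proteins, feeding them through the endoplasmic reticulum and Golgi into the blood. Transthyretin (TTR) carries thyroxine and, bound to retinol-binding protein (RBP4), holds the small retinol carrier in the circulation. Transferrin (TF) carries iron, hemopexin (HPX) binds free heme, and the AMBP precursor is cleaved into the heme-binding alpha-1-microglobulin and the inhibitor bikunin. Alpha-2-macroglobulin (A2M) traps proteases, SERPINF1 encodes pigment epithelium-derived factor, AZGP1 encodes zinc-alpha-2-glycoprotein, PGLYRP2 is an amidase that cleaves bacterial peptidoglycan, and A1BG is a glycoprotein of the immunoglobulin superfamily.

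Total counts ranged from 11500149 to 22467399 in NS, 17291281 to 23734366 in BRG1, 12550787 to 26998203 in BRM and 13885573 to 27187991 in Double libraries. Levels are in CPM, counts scaled to the normalised total of each library. SMARCA4 averaged 307 ± 6.99 CPM (SD, n = 4) in NS against 27.8 ± 2.32 CPM (SD, n = 4) in BRG1 and 46.2 ± 6.09 CPM (SD, n = 4) in Double libraries, and SMARCA2 averaged 39.2 ± 4.05 CPM (SD, n = 4) in NS against 4.38 ± 2.22 CPM (SD, n = 3) in BRM and 2.57 ± 0.299 CPM (SD, n = 4) in Double libraries, as labelled. In BRG1 libraries SMARCA2 averaged 25.8 ± 3.64 CPM (SD, n = 4). That log2 change of −0.61 ± 0.23 had an edgeR adjusted p of 0.0712, and 0.0219 in the authors' deposited table. Libraries numbered 1 and 2 differed from those numbered 3 and 4 in 8134 genes, and BRM has only 1 library of the latter set, so values are also given within each set. The labelled liver identity was checked with 12 hepatocyte markers, whose summed level was 25708 to 39922 CPM in NS, 5835 to 20581 in BRG1, 51473 to 56430 in BRM and 11978 to 27412 in Double libraries. Of the 10 markers that are not among the genes described, 7 were lower in BRG1 (9.97% of all genes tested were called lower there), 1, FGB, was higher in BRM (7.66%) and 3 were lower in Double libraries (9.9%). The last were ALB, AFP and APOC3, which were lower in BRG1 as well (−1.92 ± 0.44, −1.96 ± 0.42 and −2.51 ± 0.40 on the log2 scale). Of 10 cholangiocyte markers 5 were tested, and the list summed to 1216 to 1941 CPM in NS but 3063 to 5144 in BRG1, most of it the keratin KRT19, while AQP1, CFTR, SCTR and MUC1 stayed at or below 0.400 CPM in every library. Against NS, ANXA4 was lower in BRG1 and higher in BRM, SOX9 lower in BRM and Double, and KRT19 higher in BRG1 libraries. Stromal markers (4 of 10 tested) summed to 62.3 to 119 CPM in NS, 121 to 297 in BRG1, 125 to 215 in BRM and 91.6 to 140.1 in Double libraries. ACTA2, a smooth muscle actin, was higher in BRM (1.66 ± 0.24, edgeR adjusted p = 0.000571) and Double (0.95 ± 0.23, adjusted p = 0.00774), and the collagen COL1A1 and PDGFRB were not called. Blood and endothelial markers (7 of 10 tested, CD3E at 0 throughout) summed to 38.5 to 48.6, 37.3 to 70.4, 65.1 to 89.4 and 59.7 to 105 CPM in the same order. The macrophage marker CD68 was higher in BRM (0.91 ± 0.26, edgeR adjusted p = 0.0302) and Double (0.90 ± 0.24, adjusted p = 0.0159), PECAM1 was lower in Double (−0.70 ± 0.23, adjusted p = 0.0414) and CD14 was not called. The part of these markers in the differences below was not tested. In bulk RNA, fewer cells with a transcript and less of it per cell cannot be told apart.

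The 10 genes did not move as a block. TTR and AZGP1 were lower in all 3 knockdowns and lowest in Double. SERPINF1, A2M and A1BG were lower in BRG1 and Double libraries but not called with the BRM hairpin. AMBP fell in BRG1 and rose in BRM libraries, TF was called in BRG1 only, and RBP4 and HPX were not called against NS. PGLYRP2 rose 33.6-fold with the BRM hairpin alone. By mean, RBP4, TF, HPX, AMBP, A2M, SERPINF1 and PGLYRP2 were lowest in BRG1 and highest in BRM libraries. A gene is called where edgeR's quasi-likelihood test gave a Benjamini-Hochberg adjusted p under 0.05 over all genes tested. Against NS, 7 of 10 were lower in BRG1 libraries, where 9.97% of all genes were called lower. In BRM libraries 2 were lower (6.26% of all genes) and 2 higher (7.66%), and in Double libraries 5 were lower (9.9%). The 3 comparisons share the NS libraries. Since the genes were chosen with these contrasts known, nothing is read from the shares.

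**Figure D1:**
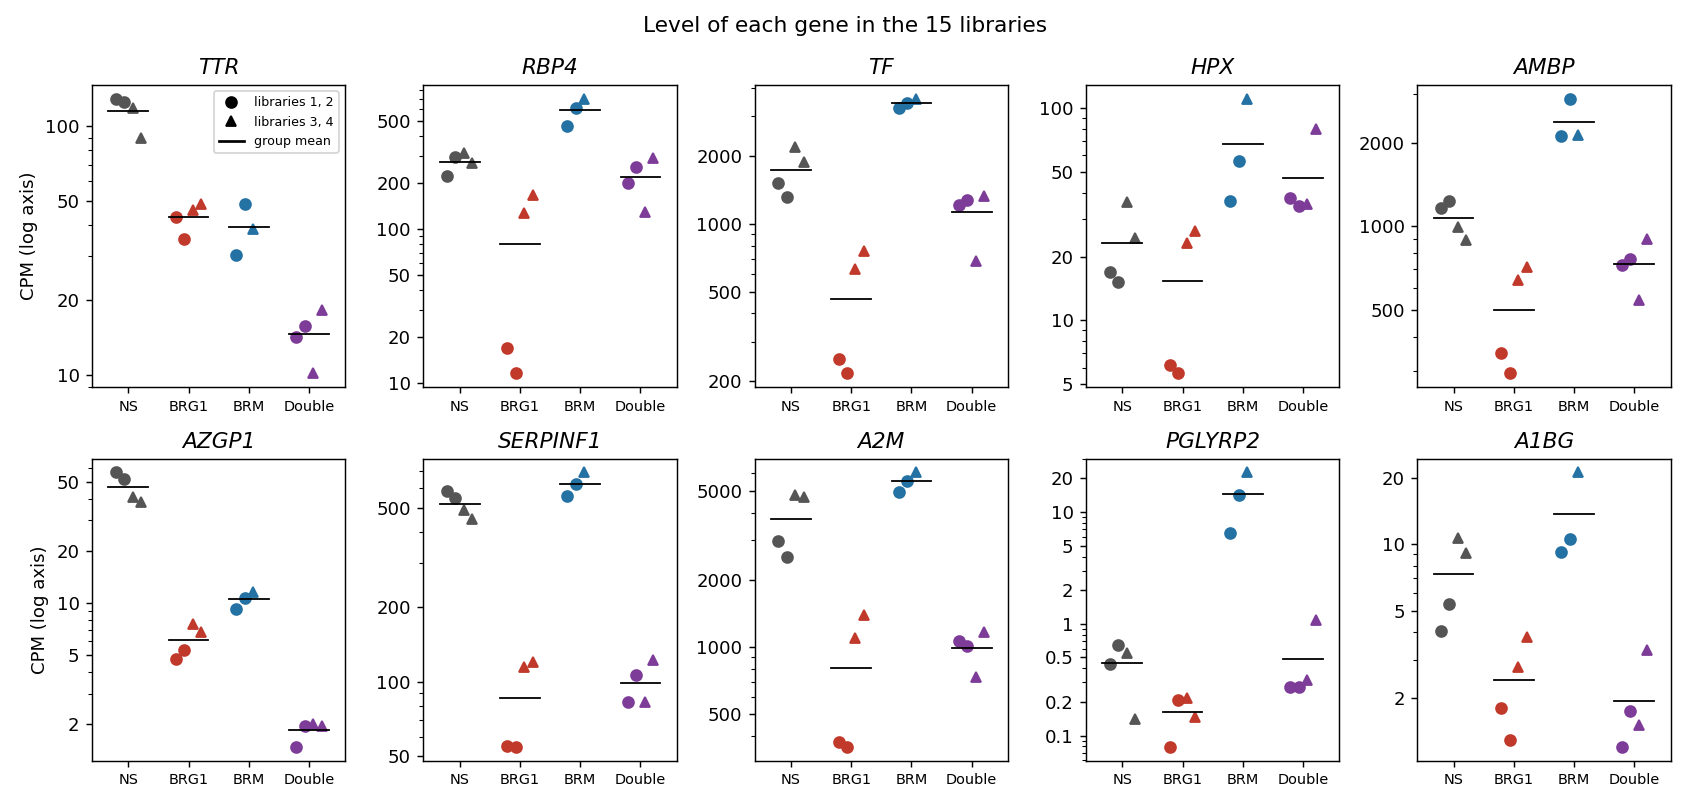
Level of each gene in every library, in CPM on a log axis, with 1 panel per gene; circles are libraries 1 and 2, triangles libraries 3 and 4, and bars group means. TTR and AZGP1 step down to Double means of 14.6 and 1.84 CPM, and PGLYRP2 is high in the 3 BRM libraries only.

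**Figure D2:**
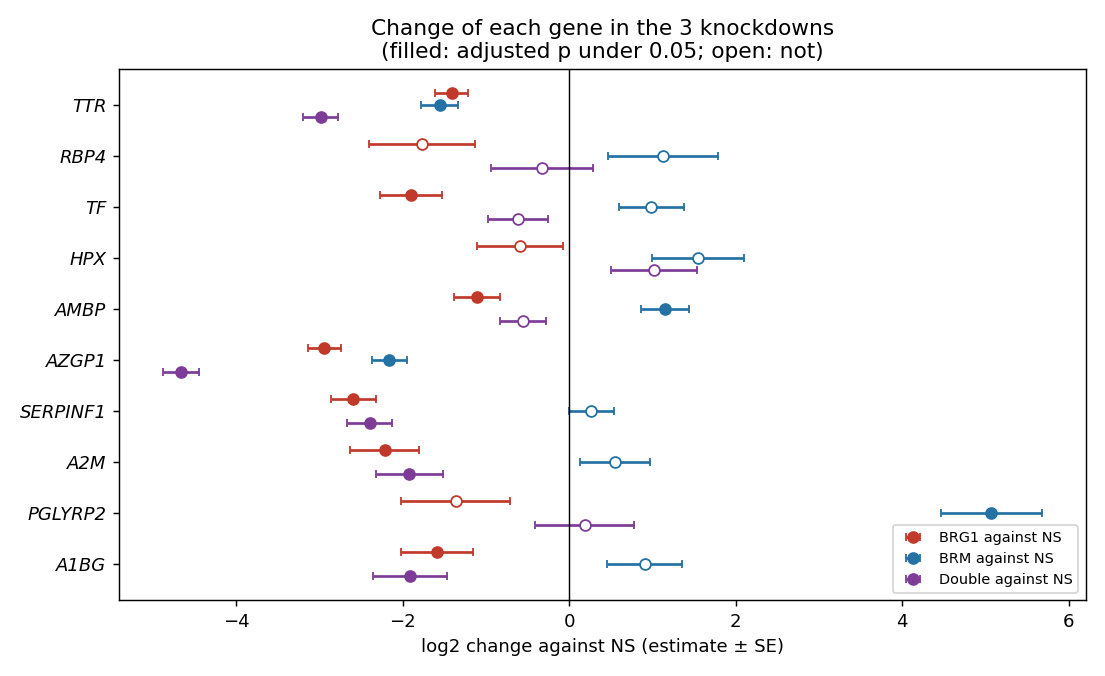
Change of each gene against NS on the log2 scale, with its standard error, in BRG1, BRM and Double libraries; filled points passed the adjusted p threshold of 0.05. AZGP1 reaches −4.66 in Double and PGLYRP2 5.07 in BRM libraries.

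The genes lie on 9 chromosomes, and only PGLYRP2 and A1BG share one (GRCh38, GENCODE v29; each interval covers the whole gene with exons, introns and UTRs). TTR is at chr18:31557010-31599021, plus strand, RBP4 at chr10:93591687-93601744, minus strand, TF at chr3:133745956-133796640, plus strand, HPX at chr11:6431049-6442617, minus strand and AMBP at chr9:114060127-114078472, minus strand. A2M is at chr12:9067664-9116229, minus strand, SERPINF1 at chr17:1761959-1777574, plus strand, AZGP1 at chr7:99966720-99976157, minus strand, PGLYRP2 at chr19:15468645-15498956, minus strand and A1BG at chr19:58345178-58353499, minus strand. Per kilobase of the principal transcript, NS libraries held 774 CPM of A2M and 749 of AMBP, whose ranges overlapped, then 335 of SERPINF1 and 207 of RBP4. TTR (121) and TF (83.8) overlapped as well, and AZGP1 (35.8), HPX (14.1), A1BG (4.24) and PGLYRP2 (0.160) followed without overlap between neighbours. The order depends on the length used. Above all this holds for TF, whose principal transcript has 20602 bases but only 2094 of coding sequence: per coding kilobase, a measure added after the data were seen, TF stood at 825 CPM, next to A2M at 848 and AMBP, then first, at 1018. RBP4 stood above SERPINF1 per coding kilobase (452 against 413) and per kilobase of all merged exons (188 against 169). Per transcript kilobase TTR went from rank 5 of the 10 in NS to rank 7 in Double and in BRM libraries, behind TF and HPX. In BRM libraries, however, TTR and HPX both averaged 41.1 CPM per transcript kilobase. Exons of TF share 112 bases with SRPRB and 191 with the pseudogene TFP1, both on its strand, A2M shares 561 with the antisense A2M-AS1, and A1BG shares 781 with A1BG-AS1, 330 with AC012313.10 on the opposite strand and 1622 with another transcript on its own. Strand use in the counting is not given in the sources used here, so reads in those stretches cannot be assigned with certainty.

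Promoter letters are shown so that the genes' levels can be read beside them. RefSeq (GRCh38.p14) has windows of 250 bases before a start for 7 of the 10 genes, with 3 windows for RBP4, and TTR, SERPINF1 and A2M have no entry. The longest stretch of each window that no annotated exon covers is printed where it has at least 50 bases, which gives 6 sequences, 5′ to 3′, all on the minus strand, with motif matches in capitals. RBP4 has a stretch directly before the annotated gene at chr10:93601745-93601994 and an internal one at chr10:93601236-93601361, and that of HPX, at chr11:6441067-6441237, is internal too. The stretches of AMBP (chr9:114078473-114078550), AZGP1 (chr7:99976158-99976281) and A1BG (chr19:58353500-58353713) lie directly before the annotated gene.
RBP4 before the gene: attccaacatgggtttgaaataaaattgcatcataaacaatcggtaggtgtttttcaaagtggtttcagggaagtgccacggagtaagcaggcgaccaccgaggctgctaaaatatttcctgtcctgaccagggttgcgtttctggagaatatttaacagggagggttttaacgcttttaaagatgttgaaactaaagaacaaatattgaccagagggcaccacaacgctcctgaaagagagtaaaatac
RBP4 internal: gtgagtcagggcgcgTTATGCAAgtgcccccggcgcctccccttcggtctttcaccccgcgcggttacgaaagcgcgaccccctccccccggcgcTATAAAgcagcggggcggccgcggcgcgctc
HPX: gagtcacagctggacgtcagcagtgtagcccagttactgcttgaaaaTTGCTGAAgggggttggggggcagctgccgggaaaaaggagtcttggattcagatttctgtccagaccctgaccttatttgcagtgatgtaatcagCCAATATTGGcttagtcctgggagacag
AMBP: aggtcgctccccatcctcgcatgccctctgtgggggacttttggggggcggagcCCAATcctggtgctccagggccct
AZGP1: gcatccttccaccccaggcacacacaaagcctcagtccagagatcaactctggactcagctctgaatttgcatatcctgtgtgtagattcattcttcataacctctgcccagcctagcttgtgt
A1BG: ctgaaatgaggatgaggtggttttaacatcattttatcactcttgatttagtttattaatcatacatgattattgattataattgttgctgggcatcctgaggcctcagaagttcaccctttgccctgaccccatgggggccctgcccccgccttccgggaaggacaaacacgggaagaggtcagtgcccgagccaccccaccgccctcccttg
The motifs searched on both strands were the HNF1 letters GTTAAT, the HNF4 site CAAAGTCCA, the forkhead sites TGTTTAC and TGTTTGC, the C/EBP site TTGCNNAA, the TATA box TATAAA and the CCAAT box. No letters of different motifs overlap in the capitals. Matches are given over the full windows, including bases in exons that are not printed. The internal RBP4 stretch has a C/EBP match (TTATGCAA on the other strand) 111 bases before its start and a TATA box 31 bases before. The window directly before the RBP4 gene has none of these letters, and the third has TATA letters 227 and 225 bases before its start and a CCAAT box 149 bases before. HPX has a C/EBP match (TTGCTGAA) 203 bases before its start and a CCAAT box on each strand, 107 and 102 bases before. AMBP has CCAAT boxes 196, 161, 91 and 67 bases before its start and TGTTTGC on the other strand 47 bases before. AZGP1 has a CCAAT box 79 bases before its start, outside the printed stretch. The TF window inside the gene has a C/EBP match 98 bases and a CCAAT box 99 bases before its start, the other TF window has none, and the PGLYRP2 and A1BG windows have none of the letters. Of all 35116 windows, 9.05% hold the C/EBP letters, 10.72% the TATA box, 32.01% the CCAAT box, 6.231% GTTAAT, 0.3246% CAAAGTCCA, 2.979% TGTTTAC and 3.232% TGTTTGC. These are matches of letters and say nothing of binding.

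TTR stepped down with each knockdown. It stood at 129, 126, 118 and 89.6 CPM in NS libraries 1 to 4, 43.1, 35.3, 46.3 and 48.9 in BRG1, 30.4, 48.9 and 38.7 in BRM and 14.2, 15.8, 10.2 and 18.3 in Double libraries. Every knockdown library lay below every NS library and every Double library below all others, while BRG1 and BRM overlapped. TTR fell 2.66-fold in BRG1 (log2 change −1.41 ± 0.20 SE, edgeR adjusted p = 0.000212), 2.94-fold in BRM (−1.55 ± 0.22, adjusted p = 0.000534) and 7.92-fold in Double libraries (−2.99 ± 0.21, adjusted p = 1.15e-06). The sets gave −1.70 and −1.16 for BRG1, −1.67 and −1.50 for BRM and −3.09 and −2.93 for Double, the first value for libraries 1 and 2.

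RBP4, the partner of TTR in plasma, did not follow it. NS libraries held 221, 291, 311 and 267 CPM. BRG1 libraries 1 and 2 held 16.9 and 11.6 CPM, and libraries 3 and 4 held 126 and 166. BRM libraries held 467, 614 and 702 CPM and Double libraries 199, 252, 129 and 289. All BRG1 libraries lay below NS and all BRM libraries above, and Double overlapped NS. The log2 change was −1.77 ± 0.63 for BRG1 (edgeR adjusted p = 0.0593), 1.12 ± 0.66 for BRM (adjusted p = 0.302) and −0.33 ± 0.61 for Double (adjusted p = 0.765), none of them called. With the replicate number as a block, RBP4 passed for BRG1 at an edgeR adjusted p of 0.0236, and without BRG1 library 4 at 0.0158. Within libraries 1 and 2 the BRG1 change was −4.16 (adjusted p = 9.56e-06) and within 3 and 4 it was −1.02 (adjusted p = 0.0814). The BRM change was 1.08 in libraries 1 and 2 (adjusted p = 0.00896) and 1.20 in libraries 3 and 4, where it rests on 1 BRM library.

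Transferrin fell with the BRG1 hairpin. TF stood at 1522, 1310.0, 2196 and 1881 CPM in NS, 250.1, 217, 627 and 759 in BRG1, 3259.9, 3443 and 3583 in BRM and 1210.3, 1279.8, 685 and 1329 in Double libraries. The BRG1 libraries lay below and the BRM libraries above all NS libraries. The fall in BRG1 was 3.73-fold (−1.90 ± 0.37, edgeR adjusted p = 0.00215), the BRM value was 0.99 ± 0.39 (adjusted p = 0.109) and the Double value −0.62 ± 0.36 (adjusted p = 0.256). Within libraries 1 and 2, BRM passed at 1.25 (adjusted p = 0.000810). Within libraries 3 and 4, Double passed at −1.06 (adjusted p = 0.0248), against −0.19 in libraries 1 and 2.

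Hemopexin was a low transcript whose level moved with the set of libraries. HPX stood at 16.9, 15.2, 36.3 and 24.5 CPM in NS, 6.19, 5.63, 23.1 and 26.5 in BRG1, 36.5, 56.5 and 111 in BRM and 37.9, 34.7, 35.5 and 79.5 in Double libraries. BRG1 and Double overlapped NS, and the lowest BRM library was just above the highest NS library. None of the changes against NS was called: −0.59 ± 0.52 for BRG1 (edgeR adjusted p = 0.475), 1.55 ± 0.55 for BRM (adjusted p = 0.0767) and 1.02 ± 0.52 for Double (adjusted p = 0.186). With the replicate block, the Double change passed at an edgeR adjusted p of 0.0198. Libraries 1 and 2 alone gave −1.44 for BRG1, 1.54 for BRM and 1.18 for Double, all called in that fit, with adjusted p = 0.00101, 0.00115 and 0.00342. Libraries 3 and 4 gave −0.32 for BRG1 and 0.88 for Double, neither called, and 1.80 for BRM, which rests on 1 BRM library.

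AMBP was called in opposite directions in the single knockdowns. It stood at 1169, 1237, 997 and 895 CPM in NS, 348, 295, 642 and 716 in BRG1, 2130.0, 2894 and 2142 in BRM and 725, 762, 542 and 903 in Double libraries. BRG1 lay wholly below and BRM wholly above NS, and Double overlapped it by its highest library. AMBP fell 2.15-fold in BRG1 (−1.10 ± 0.28, edgeR adjusted p = 0.00973) and rose 2.22-fold in BRM libraries (1.15 ± 0.29, adjusted p = 0.0175), and the Double value was −0.55 ± 0.27 (adjusted p = 0.173). The rise was not called without BRM library 2 or without NS library 4, with an adjusted p of up to 0.114. The BRG1 change was −1.90 in libraries 1 and 2 and −0.52 in libraries 3 and 4, where it was not called (adjusted p = 0.141).

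A2M and SERPINF1 fell with the BRG1 hairpin, with or without the BRM hairpin. A2M stood at 2972, 2543, 4809 and 4683 CPM in NS, 377, 356, 1099 and 1396 in BRG1, 4952, 5531 and 6051 in BRM and 1062, 1008, 735 and 1168 in Double libraries. BRG1 and Double libraries overlapped each other and lay below NS, and BRM libraries lay above it by a margin smaller than the spread within NS. A2M fell 4.65-fold in BRG1 (−2.22 ± 0.41, edgeR adjusted p = 0.00143) and 3.78-fold in Double libraries (−1.92 ± 0.41, adjusted p = 0.00366), and the BRM value was 0.55 ± 0.42 (adjusted p = 0.445). The BRG1 change was −2.91 in libraries 1 and 2 and −1.96 in libraries 3 and 4, and the Double change −1.41 and −2.36.

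SERPINF1, a serpin known for acting on blood vessels and neurons rather than as a protease inhibitor, stood at 582, 547, 490.4 and 453 CPM in NS and 55.2, 54.5, 114 and 120.1 in BRG1 libraries. It stood at 555, 621 and 693 CPM in BRM and 82.4, 106, 83.1 and 122 in Double libraries. The BRM libraries overlapped NS, and the other knockdown groups lay far below it. SERPINF1 fell 6.02-fold in BRG1 (−2.59 ± 0.27, edgeR adjusted p = 1.96e-05) and 5.26-fold in Double libraries (−2.40 ± 0.27, adjusted p = 3.01e-05), with 0.27 ± 0.27 in BRM libraries (adjusted p = 0.597).

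AZGP1 changed the most of the 10 in the double knockdown. It stood at 56.6, 51.7, 40.6 and 38.4 CPM in NS, 4.77, 5.32, 7.53 and 6.78 in BRG1, 9.27, 10.7 and 11.5 in BRM and 1.48, 1.96, 2.0 and 1.95 in Double libraries. No pair of groups overlapped, and the order was NS, BRM, BRG1 and Double from high to low. AZGP1 fell 7.67-fold in BRG1 (−2.94 ± 0.20, edgeR adjusted p = 5.56e-07), 4.46-fold in BRM (−2.16 ± 0.21, adjusted p = 4.47e-05) and 25.3-fold in Double libraries (−4.66 ± 0.22, adjusted p = 2.63e-08). The 147 counts over the 4 Double libraries compare with 3079 over the 4 NS libraries.

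PGLYRP2, the peptidoglycan amidase, was nearly silent except with the BRM hairpin alone. Its raw counts were 9, 8, 6 and 3 in NS, 2, 4, 5 and 3 in BRG1, 80, 283 and 491 in BRM and 5, 4, 9 and 19 in Double libraries. As CPM these were 0.139 to 0.641 in NS, 0.0789 to 0.218 in BRG1, 6.45, 14.2 and 22.6 in BRM and 0.270 to 1.09 in Double libraries. The BRM libraries lay above all others, and the rest overlapped except that BRG1 lay below Double. The rise in BRM was 33.6-fold (5.07 ± 0.60, edgeR adjusted p = 0.000142), and the values for BRG1 (−1.36 ± 0.66, adjusted p = 0.160) and Double (0.19 ± 0.59, adjusted p = 0.873) rest on few reads. With few reads outside the BRM libraries, PGLYRP2 did not pass the count filter in fits of 2 groups without them. It was also chosen with these differences known, so its tests that involve the BRM libraries, the interaction included, give no support.

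A1BG was low throughout, at 4.03, 5.37, 10.7 and 9.11 CPM in NS, 1.81, 1.29, 2.78 and 3.78 in BRG1, 9.19, 10.6 and 21.2 in BRM and 1.20, 1.75, 1.51 and 3.32 in Double libraries. BRG1 and Double lay below NS, and BRM overlapped it. A1BG fell 3.01-fold in BRG1 (−1.59 ± 0.44, edgeR adjusted p = 0.0165; 0.0545 without NS library 3) and 3.75-fold in Double libraries (−1.91 ± 0.44, adjusted p = 0.00676). The BRM value was 0.91 ± 0.45 (adjusted p = 0.210). Within sets the BRG1 change was −1.57 and −1.63, and the Double change −1.67 and −2.12.

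The single knockdowns were also compared with each other, without NS. Of the 10 genes, 9 were lower in BRG1 than in BRM libraries, where 16.7% of all genes were called lower. PGLYRP2 differed by −6.43 ± 0.65 on the log2 scale (edgeR adjusted p = 5.62e-06), RBP4 by −2.89 ± 0.68 (0.00441), TF by −2.89 ± 0.40 (7.81e-05) and AZGP1, the smallest of the 9, by −0.78 ± 0.20 (0.00701). HPX differed by −2.15 ± 0.56 (0.00801) and was not called without BRM library 3 (adjusted p = 0.0530). TTR, at 0.14 ± 0.22 (adjusted p = 0.658), was the gene not called.

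In Double against BRG1 libraries TTR and AZGP1 were lower, for which 6.72% of all genes is the background, and TF was higher, against 4.1%. SMARCA4 itself was 1.66-fold higher in Double than in BRG1 libraries (0.73 ± 0.16, edgeR adjusted p = 0.00858), so these groups differ in more than the BRM hairpin, and the part of that in the differences was not tested. TTR was 2.98-fold lower in Double than in BRG1 libraries (−1.57 ± 0.20, edgeR adjusted p = 0.000344) and AZGP1 3.29-fold lower (−1.72 ± 0.20, adjusted p = 0.000182). TF was 2.43-fold higher (1.28 ± 0.37, adjusted p = 0.0365), but that call was lost on leaving out any of 6 libraries (BRG1 1 or 2, BRM 2, or Double 1, 2 or 4), with an adjusted p of up to 0.105, and the groups overlapped. HPX, whose Double libraries all lay above BRG1, stood at 1.61 ± 0.52 (adjusted p = 0.0653, and 0.0367 without BRG1 library 4) and RBP4 at 1.44 ± 0.63 (adjusted p = 0.171). SERPINF1 (0.19 ± 0.25), A2M (0.30 ± 0.39) and A1BG (−0.32 ± 0.44) were not called, with adjusted p = 0.741, 0.741 and 0.758. Within libraries 1 and 2 alone 6 genes were higher in Double than in BRG1 libraries, among them RBP4 at 3.98 and TF at 2.42. In that fit 3981 genes of the whole table were called in either direction, against 1582 with all libraries, so nothing is read from the count. Within libraries 3 and 4 the same differences were 0.50 and 0.53, and neither passed.

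In Double against BRM libraries 8 of the 10 genes were lower, with 9.74% of all genes called lower. PGLYRP2 was 29.6-fold lower in Double than in BRM libraries (−4.89 ± 0.59, edgeR adjusted p = 6.57e-05), A1BG 7.03-fold (−2.81 ± 0.47, adjusted p = 0.000772), SERPINF1 6.34-fold and TTR 2.70-fold. RBP4 (−1.45 ± 0.66, adjusted p = 0.147) and HPX (−0.54 ± 0.55, adjusted p = 0.557) were not called, although every Double library had less RBP4 than every BRM library.

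Whether the double change equalled the sum of the single changes was tested by the interaction term. TTR stood at −2.99 against a sum of −2.97, SERPINF1 at −2.40 against −2.32 and AZGP1 at −4.66 against −5.10. PGLYRP2 stood at 0.19 against 3.71 and A1BG at −1.91 against −0.68. The sum and the double change share the NS libraries. By edgeR 0 of the 10 genes were called, where 0.499% of all genes were. At an unadjusted p under 0.05 there was 1, PGLYRP2 (−3.53 ± 0.90, adjusted p = 0.103), which DESeq2 also called, while limma voom called 0. PGLYRP2 passed in edgeR without BRM library 1 or without Double library 4, with adjusted p down to 0.0385. A1BG stood at −1.23 ± 0.63 (adjusted p = 0.486), and TTR at −0.02 ± 0.29. Within libraries 1 and 2 alone RBP4 (2.90, adjusted p = 0.00213) and TF (1.17, adjusted p = 0.0155) were called above the sum. In libraries 3 and 4, with only 1 BRM library, they stood at −0.69 and −0.20, the opposite sign, and neither passed.

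**Figure D3:**
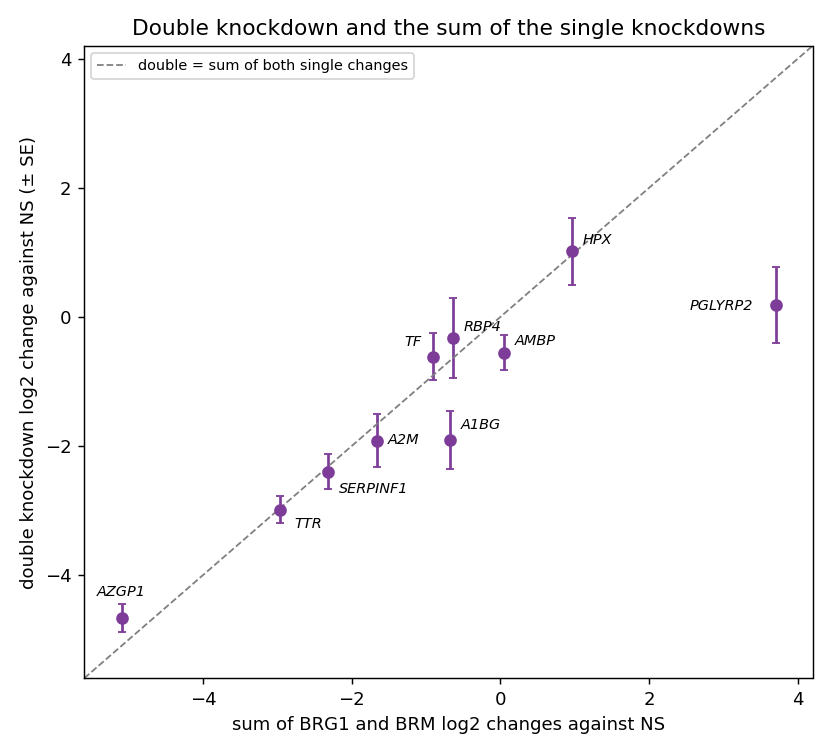
Log2 change against NS in the double knockdown, with its standard error, plotted against the sum of both single log2 changes; the dashed line marks equality. TTR lies on the line near −2.97, and PGLYRP2 lies below it, with an interaction of −3.53.

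The size of the BRG1 change differed between the sets of libraries for 4 of the 10 genes. In a fit with terms for group by set, added after the data were seen, 4 of the 10 genes had a BRG1 change called higher (less negative) in libraries 3 and 4 than in 1 and 2, where 1.54% of all genes were. RBP4 differed by 3.18 ± 0.49 on the log2 scale (edgeR adjusted p = 0.0132), AMBP by 1.42 ± 0.32 (0.0376), SERPINF1 by 1.36 ± 0.25 (0.0187) and AZGP1 by 0.96 ± 0.23 (0.0472). SERPINF1 went from −3.36 to −2.05 and AZGP1 from −3.42 to −2.50, and both were called in each set. SMARCA4 itself differed by −0.17 ± 0.22 (adjusted p = 0.679). For the BRM change edgeR called 0 of the 10 genes (2.26% of all genes), with 1 at an unadjusted p under 0.05, and for the Double change 0 (3.71%), with 3 at an unadjusted p under 0.05. The level itself, over all groups, was higher in libraries 3 and 4 for A1BG, A2M and HPX, which is 3 of 10 against 27.3% of all genes. What the sets share is not given in the labels, and its part in these differences was not tested.

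**Figure D4:**
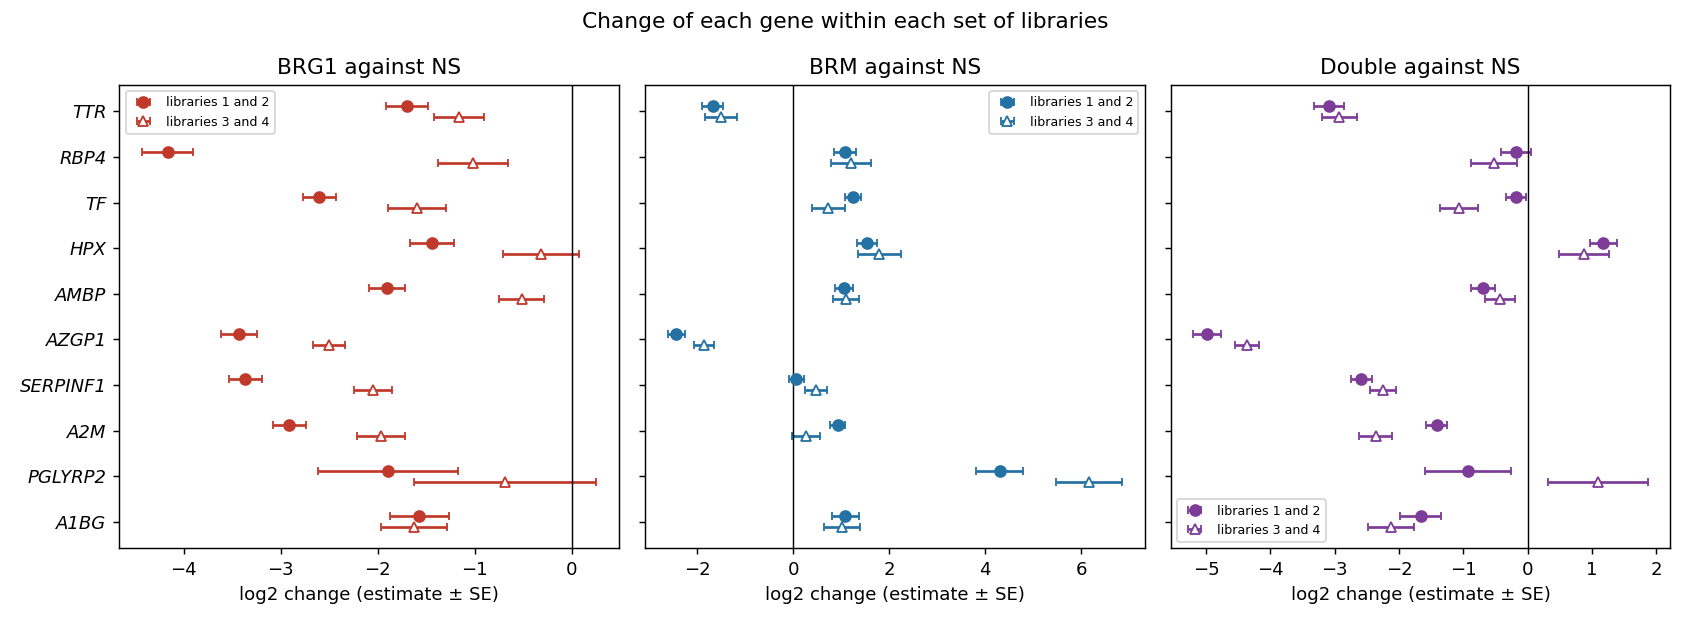
Log2 change of each gene against NS, with its standard error, fitted within libraries 1 and 2 (filled circles) and within libraries 3 and 4 (open triangles), in 1 panel per knockdown. RBP4 in BRG1 libraries is the widest gap, −4.16 against −1.02.

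Together the 10 genes took 0.662 to 0.849% of all counts in NS libraries, 0.110 to 0.313% in BRG1, 1.07 to 1.19% in BRM and 0.233 to 0.378% in Double libraries. No groups overlapped except BRG1 and Double, and A2M and TF supplied most of these counts. Over the 15 libraries, log2 CPM of TTR followed AZGP1 (Pearson r = 0.954), SERPINF1 followed A2M (0.958) and RBP4 followed TF (0.957), whereas TTR and HPX had r = −0.293. The genes outside the list with the pattern most like a member's, among 11894 genes, were PABPC4 for TTR (0.948), EFNA1 for RBP4 (0.987), MMAB for TF (0.991), VTN for HPX (0.978) and ACAA1 for AMBP (0.988). For the others they were C3 for A2M (0.982), ZBED3 for SERPINF1 (0.975), LRRC8D for AZGP1 (0.964), CALM3 for PGLYRP2 (0.970) and SLC25A23 for A1BG (0.974). PIPOX (0.979), NEU4, C3, TFR2 and ALB were most like the mean of the 10. These values describe 15 libraries that share group and set, and the genes were ranked by them.

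A list of other plasma proteins of the liver is given for comparison. Of 35 tested, 20 (57.1%, against 9.97% of all genes) were lower and 0 higher in BRG1 libraries (median log2 change −1.39, against 0.02 over all genes). In BRM libraries 3 were lower (8.57%, against 6.26%) and 11 higher (31.4%, against 7.66%), with a median of 1.15 against 0.03, and in Double libraries 14 were lower (40.0%, against 9.9%) and 0 higher (−1.04 against 0.02). FETUB, encoding fetuin-B, stood at −1.39 ± 0.33 in BRG1, 2.94 ± 0.34 in BRM and −1.73 ± 0.34 in Double libraries (edgeR adjusted p = 0.00753, 0.000111 and 0.00226). ITIH3, a heavy chain that bikunin from AMBP is joined to, stood at −2.57 ± 0.35, 1.92 ± 0.36 and −2.25 ± 0.35 in that order (adjusted p = 0.000149, 0.00263 and 0.000362). SERPINA7, the thyroxine-binding globulin that shares the ligand of TTR, stood at −2.37 ± 0.37, 1.34 ± 0.37 and −1.55 ± 0.36 (adjusted p = 0.000393, 0.0272 and 0.00611). It was thus higher in BRM libraries, where TTR was lower. Some of these proteins are among the hepatocyte markers given above.

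Of 27 tested partners and receptors of the carriers, 11 (40.7%) were lower and 3 (11.1%) higher in BRG1 libraries, where 9.97% and 12.5% of all genes were (median −0.62). In BRM libraries 3 (11.1%) were lower and 9 (33.3%) higher, against 6.26% and 7.66% (0.27), and in Double libraries 8 (29.6%) were lower and 1 (3.7%) higher, against 9.9% and 11.8% (−0.42). SLC16A10, a transporter of aromatic amino acids and thyroid hormone, stood at −2.37 ± 0.27 in BRG1, −1.05 ± 0.28 in BRM and −2.86 ± 0.27 in Double libraries on the log2 scale (edgeR adjusted p = 3.07e-05, 0.0219 and 1.04e-05). ALDH1A1, which makes retinoic acid from retinal, fell in BRG1 (−2.32 ± 0.23) and Double (−1.50 ± 0.22) and rose in BRM libraries (1.42 ± 0.23). HMOX1, the heme oxygenase, rose in BRM (1.67 ± 0.30) and Double libraries (2.78 ± 0.29, adjusted p = 2.04e-05). The receptors below were named for their ligand after their values were seen. STRA6, the receptor of RBP4, fell from 3.66 CPM in NS to 0.740 in BRG1, 1.33 in BRM and 0.665 in Double libraries (adjusted p = 0.00140, 0.0479 and 0.00102). TFRC, the main transferrin receptor, averaged 447, 364, 495 and 346 CPM in NS, BRG1, BRM and Double libraries and was not called (adjusted p = 0.440, 0.789 and 0.318). TFR2, the transferrin receptor of hepatocytes, averaged 30.9, 8.14, 85.6 and 9.94 CPM and was called each time (adjusted p = 0.00607, 0.0441 and 0.0154). LRP1, the receptor of heme-loaded hemopexin, averaged 428, 239, 736 and 319 CPM, called lower in BRG1 (0.00763) and higher in BRM (0.0257).

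Of 26 hepatocyte transcription factors, 9 (34.6%, against 9.97% of all genes) were lower and 1 (3.85%, against 12.5%) higher in BRG1 libraries (median −0.69). In BRM libraries 3 (11.5%) were lower and 1 (3.85%) higher, against 6.26% and 7.66% (0.04), and in Double libraries 8 (30.8%) were lower and 1 (3.85%) higher, against 9.9% and 11.8% (−0.51). PROX1 and the nuclear receptor NR2F1 were, like TTR, lower in all 3 knockdowns and lowest in Double. PROX1 stood at −1.02 ± 0.16 in BRG1, −0.88 ± 0.17 in BRM and −1.58 ± 0.16 in Double libraries on the log2 scale (edgeR adjusted p = 0.000360, 0.00356 and 1.46e-05). NR2F1 stood at −1.48 ± 0.21, −0.92 ± 0.22 and −1.69 ± 0.21 (adjusted p = 0.000166, 0.0135 and 6.34e-05). ONECUT2 fell in BRM (−1.44 ± 0.20) and Double libraries (−1.65 ± 0.18) and stood at −0.13 ± 0.17 in BRG1 (adjusted p = 0.658).

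The protein secretion machinery, 54 genes, had 19 (35.2%, against 9.97% of all genes) lower and 2 (3.7%, against 12.5%) higher in BRG1 libraries (median −0.42). In BRM libraries 7 (13%, against 6.26%) were lower and 0 higher (−0.09), and in Double libraries 17 (31.5%, against 9.9%) were lower and 1 (1.85%, against 11.8%) higher (−0.39). FURIN, a protease that cleaves secretory precursors, rose in BRG1 (0.67 ± 0.18, edgeR adjusted p = 0.0133) and Double libraries (1.34 ± 0.18, adjusted p = 0.000131). RPN2, a subunit of the enzyme that adds N-glycans, fell in BRG1 (−1.36 ± 0.20) and Double (−0.98 ± 0.20), as did KDELR2, a receptor that returns proteins to the endoplasmic reticulum (−0.91 ± 0.16 and −0.70 ± 0.16).

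In the authors' deposited tables all 10 genes had the sign of the edgeR change in each of the 3 comparisons with NS, with log2 values within 0.0714 of it. Those tables, which name no reference group, list 8 of the 10 under 0.05 for BRG1 (8 lower), 5 for BRM (2 lower, 3 higher) and 5 for Double (5 lower). The share of all genes under 0.05 in them was not computed, so nothing is read from these counts. The DESeq2 run made here called 3982 genes for BRG1, 2821 for BRM and 3900 for Double against NS, in either direction. In the authors' deposited table for BRG1, RBP4 is the additional gene (adjusted p = 0.0171), and in that for BRM it is HPX (adjusted p = 0.0403).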

How the data were processed

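The deposited table holds whole-number counts per gene symbol. The submitters' processing notes name kallisto, DESeq2 and the GRCh38 build; their versions, the strand setting and the annotation are not stated there or in the labels. The authors' tables hold, per the file headers, log2 fold changes with errors, a test score, p-values and a mean signal, counts divided by size factors. The test was edgeR 4.0.16 under R 4.3.3 (filterByExpr on group, TMM factors, robust quasi-likelihood F test, 15 libraries in 1 fit, 7 contrasts, two-sided), with Benjamini-Hochberg adjustment over the 14621 genes that passed the filter. The standard error is the log2 change divided by the square root of F. CPM use TMM-scaled totals, and log2 CPM a prior count of 2. Alternatives were DESeq2 1.42.0, limma 3.58.1 voom, no filter, the replicate block, each set alone, a set term, only the groups compared, and leaving out each library; edgeR, DESeq2 and voom were tested on simulated data. The 10 members, the 8 gene lists (190 entries, 189 in the table) and the tests were chosen with earlier results of these data known. From each list, up to 3 genes with the smallest adjusted p against NS at a mean of at least 2 CPM are named where the list is described; the most alike genes have the highest Pearson r. Genes were placed with GENCODE v29. Deviations from the group mean correlated between same-numbered libraries, at 0.427 to 0.565 for NS with BRG1 and 0.179 to 0.454 for NS with Double. For BRG1 with BRM the correlations were 0.104 to 0.532. Libraries of different numbers were not compared, and the sets differ, so these values cannot show what a number pairs. The main fit used no block. The correlations were 0.0733 to 0.527 for NS with BRM, 0.0578 to 0.659 for BRG1 with Double and 0.0133 to 0.589 for BRM with Double. A gene of the marker lists is left out of the text and not reported here.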

Additional observations from a re-analysis of the deposited data

Results flagged for a closer look

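Of 30 groups of 4 libraries examined for a library far from its group, 3 had one, and chance gives about 1 in 20. HPX in Double library 4 stood at 79.5 CPM, above the other 3 Double libraries at 34.7 to 37.9 CPM. PGLYRP2 in Double library 4 stood at 1.09 CPM, above the others at 0.270 to 0.316 CPM. AZGP1 in Double library 1 stood at 1.48 CPM, below all others.

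For 4 genes the BRG1 change differed between the sets of libraries by an edgeR interaction term. The difference, libraries 3 and 4 minus 1 and 2 on the log2 scale, was 3.18 for RBP4, 1.42 for AMBP, 1.36 for SERPINF1 and 0.96 for AZGP1.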

How the results depend on the processing

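No called change of the 10 genes reversed under any alternative run. Of 70 results (10 genes in 7 contrasts), 66 kept their side of the threshold with DESeq2, 67 with limma voom, 69 without the filter (1 lost), 62 with the replicate block, 59 with a term for the set, 53 in libraries 1 and 2 alone and 65 in libraries 3 and 4 alone (2 lost), as did 1036 of 1050 on leaving out 1 library. The rest under these settings, apart from leaving out 1 library, passed the threshold newly. With only the 2 groups compared, where neither the interaction nor PGLYRP2 without BRM libraries could be fitted, 53 kept it, 3 passed newly and 1 was lost. Counts over all genes moved more. With the replicate block, genes called went from 3284 to 5318 for BRG1 against NS, 2035 to 4153 for BRM, 3165 to 5200 for Double, 1582 to 3259 for Double against BRG1, 2787 to 5302 for Double against BRM and 73 to 633 for the interaction. The block brought 7 members in place of 4 for BRM (adding TF, HPX and A1BG, higher, edgeR adjusted p = 0.0262, 0.00257 and 0.00484), 2 in place of 0 for the interaction (A1BG 0.0406, PGLYRP2 0.0419) and HPX for Double against BRG1 (0.00150); with RBP4 and HPX as given above, it changed no other member's call. A term for the set gave 5720, 4684, 5646, 7659 (from 4957, BRG1 against BRM), 3728, 5718 and 1061 genes, with 7 members for BRM, 5 for Double against BRG1 and 2 for the interaction. Libraries 1 and 2 alone gave 5645 genes for BRG1, 4064 for BRM, 3981 and 4520 for Double against BRG1 and BRM and 1619 for the interaction, with 9, 8 and 2 members for BRM, Double against BRG1 and the interaction. Libraries 3 and 4 alone gave 3061 for BRM, 5045 for Double and 243 for the interaction. Only the 2 groups compared gave 1002 for BRM. DESeq2 called 465 genes and 1 member for the interaction. For Double against BRG1 limma voom called 5 members in place of 3, and 1700 genes in place of 1582. Leaving out 1 library gave 6 to 8 members for BRG1, 3 to 4 for BRM, 2 to 4 for Double against BRG1 and 0 to 1 for the interaction. Over all genes it gave 2384 to 3454 for BRG1 and 959 to 2063 for BRM, the latter lowest without BRM library 2. For Double against BRG1 it gave 934 to 1714 genes, lowest without Double library 2. The interaction had 38 to 166 genes, lowest without BRM library 2 and highest without BRM library 1. The cause of these shifts was not tested. Depth limits PGLYRP2, with 26 counts over 4 NS libraries and 14 over 4 BRG1 libraries.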
